A study of Mus musculus with 6 samples.

Results

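Plasma cells, the antibody-secreting end stage of the B cell lineage, were picked out of mouse splenocytes by 2 transcripts that such cells hold in large amounts. A barcode was a plasma cell where it had from 300 to 5000 genes, at most 10% mitochondrial UMIs, at least 20 UMIs of Jchain (chr5:88519809-88527891 in mm10, the J chain that joins antibody units) and at least 3 UMIs of Xbp1 (chr11:5520659-5525893, the transcription factor of the secretory programme). A UMI (unique molecular identifier) counts 1 captured molecule. The rule found 125 cells among 20161 that met the limits on genes and mitochondrial UMIs, or 0.620% (exact binomial 95% interval 0.516 to 0.738%). Each cell was then assigned the isotype of the heavy-chain constant gene with the most UMIs in it, so the values of Jchain, Xbp1 and the constant genes describe the choice of cells and are no findings about them.

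The samples were splenocytes of male C57BL/6 mice in 3 groups. Young mice of 3 months and aged mice of 20 months received saline, and a further group of aged mice of 20 months received recombinant mouse PF4, a platelet chemokine, at 5 µg/mL. All groups were injected into the tail vein, 100 µL each time, 8 times over 24 days, and red blood cells were lysed before capture. Cells of 5 mice per group were pooled and counted once by CITE-seq, which sequences RNA together with DNA-tagged antibodies against surface proteins, as 1 RNA and 1 antibody library. In the deposited matrix the end of each barcode marks its library, and which library is which group was not given in what was read, so they are named 1, 2 and 3 after that mark. Groups were therefore not compared and no test was computed. They held 24569928, 36599055 and 40949298 RNA UMIs over all barcodes, and 68 barcode sequences occurred under more than 1 suffix, with 0 plasma cells among them. The 95% intervals printed are exact and hold the error of counting alone, not the spread between mice or cells. UMIs of 1 cell share that cell, and cells of 1 library share that library.

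A plasma cell fills much of its RNA with the transcripts of 1 heavy and 1 light chain, each made of a variable (V) part chosen by gene rearrangement and a constant part. The heavy constant gene sets the isotype: Ighm gives IgM, the first to be made, and class switching replaces it by a gene further along the locus for IgG or IgA. Secreted IgM and IgA are joined into larger forms through a cysteine in their secreted tail, to which the J chain binds, whereas IgG is secreted as single units.

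The last 60 coding bases of the secreted form of each heavy constant gene that led in a plasma cell are shown because they mark that difference. They come from mm10 (GRCm38) with the GENCODE annotation, lie in 1 coding exon each, on the minus strand of chromosome 12, and are written from 5′ to 3′ without the stop codon. Capitals mark a cysteine codon in the penultimate place.
Ighm, chr12:113420870-113420929: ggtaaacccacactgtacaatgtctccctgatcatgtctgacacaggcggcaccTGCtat
Igha, chr12:113258771-113258830: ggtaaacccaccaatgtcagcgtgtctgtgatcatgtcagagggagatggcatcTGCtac
Ighg3, chr12:113359668-113359727: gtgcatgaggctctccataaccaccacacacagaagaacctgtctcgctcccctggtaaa
Ighg1, chr12:113328979-113329038: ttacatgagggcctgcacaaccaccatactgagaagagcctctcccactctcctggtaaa
Ighg2b, chr12:113306392-113306451: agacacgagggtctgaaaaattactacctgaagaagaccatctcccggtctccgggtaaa
Ighg2c, chr12:113287392-113287451: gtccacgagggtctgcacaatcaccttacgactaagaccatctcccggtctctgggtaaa
Ighm and Igha each have 1 cysteine codon among these 20 codons, and the 4 IgG genes have 0. The deposited counts are per gene and do not tell the secreted from the membrane form.

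The cells carried plasma cell markers that the rule did not use. Levels are given as CPM, the UMIs of a gene per 1000000 UMIs outside the immunoglobulin genes and Jchain, summed over cells. Sdc1, which encodes the plasma cell surface protein CD138, was at 399, 431 and 266 CPM in the plasma cells of libraries 1, 2 and 3, against 3.7 CPM in B cells (11061 kept cells with UMIs of Ms4a1 and Cd79a and under 3 of Jchain), and had a UMI in 107 of 125 plasma cells. Prdm1, the repressor that ends the B cell programme, was at 198, 223 and 168 CPM, against 5.1 CPM in B cells. Mzb1, an endoplasmic reticulum chaperone of marginal zone B cells and plasma cells, was at 5763, 5295 and 6069 CPM and was seen in 124 of 125 cells. The regulator Irf4 was at 213 CPM over all plasma cells against 49.2 CPM in B cells, the degradation factor Derl3 at 496 against 2.5 CPM, and Tnfrsf17, which encodes the survival receptor BCMA, at 183 CPM in 58 of 125 cells, against 2 UMIs in all 11061 B cells. With each cell thinned to 1000 UMIs outside the immunoglobulin genes, Sdc1 was seen in 35.2% of 122 plasma cells (85.6% before thinning) and in 0 of 400 T cells, which should lack it (upper limit 0.918%). Mzb1 was then seen in 95.1% of plasma cells and 1.25% of T cells, and Prdm1 in 14.8% and 2%. Median depth outside the immunoglobulin genes was 7415 UMIs over all 125 plasma cells. It was 3562.5 in 400 B cells and 5313.5 in 400 T cells, drawn among those with at least 1000 such UMIs. For thinning, 3 plasma cells that were too shallow were left out.

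B cell genes were present at lower levels. The 8 B cell markers summed to 1159, 1238 and 1433 CPM in the plasma cells of libraries 1, 2 and 3, against 5978 CPM in B cells. Ms4a1, the gene of CD20, was at 276 CPM against 1450 CPM, and Pax5, the B cell master regulator, at 52.9 against 433 CPM. Ms4a1 was used to choose the B cells, so its level there is set by that choice. Markers of other lineages were low and uneven. The 6 T cell markers summed to 80.4, 147 and 359 CPM in libraries 1, 2 and 3 against 4131 CPM in T cells. Among them Cd3e, Cd3d and Trac were used to choose the T cells, so the 4131 CPM is partly set by that choice. At least 3 UMIs of T or NK cell markers were in 10 plasma cells (2, 3 and 5 by library). Up to 33 T cell marker UMIs were in 1 cell, an Ighm cell of library 3. NK cell markers had UMIs in 11 plasma cells, with at least 3 in 2 cells, although Ncr1 was at 0. Of the platelet markers Ppbp was at 0. Of the plasmacytoid dendritic cell markers Siglech was seen in 1 cell, but their sum was above that of B cells, as given below. Neutrophil markers summed to 459, 24.5 and 29.2 CPM in the plasma cells of libraries 1, 2 and 3, and to 13141 CPM in the T cells of library 1. Monocyte and macrophage markers had at least 3 UMIs in 10 plasma cells. Haemoglobin RNA was high in library 1, where 3 erythroid markers summed to 8107 CPM in plasma cells and 11185 CPM in T cells, against 33.6 and 63.8 CPM in the plasma cells of libraries 2 and 3. A single library 1 cell held 2263 of those UMIs. The part of these other transcripts in the results below was not tested, and doublets were limited only through the upper limit on genes.

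At the edge of the rule the members were few. Inside it, 4 cells had 20 to 29 Jchain UMIs, and their median immunoglobulin share of RNA UMIs, in which Jchain is counted, was 2.35%. Just outside, 5 cells had 10 to 19 Jchain UMIs with enough Xbp1, and their median share was 1.75%. A different set of 9 cells had at least 20 Jchain UMIs but under 3 of Xbp1, a median depth of 3131 UMIs and a median immunoglobulin share of 62.4%. Among the members with 3 to 5 Xbp1 UMIs, 11 cells, the median share was 43.3%. Of all 125 members, 8 had under 20% immunoglobulin UMIs (3, 1 and 4 by library), and 83 had at least 50% (35, 32 and 16).

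IgM led among the plasma cells of libraries 1 and 2, and IgG among those of library 3. Over all libraries 87 cells were IgM (69.6%, 60.7 to 77.5%), 30 were IgG (24.0%, 16.8 to 32.5%) and 8 were IgA (6.40%, 2.80 to 12.2%). No cell was led by Ighd or Ighe (0 of 125, which allows a share of up to 2.91%). Library 1 had 43 plasma cells, 1.02% of its kept cells (0.742 to 1.38%), library 2 had 45 (0.599%, 0.437 to 0.801%) and library 3 had 37 (0.438%, 0.308 to 0.603%). IgM made up 35 of 43 cells (81.4%, 66.6 to 91.6%), 39 of 45 (86.7%, 73.2 to 94.9%) and 13 of 37 (35.1%, 20.2 to 52.5%), so that the interval of library 3 lay below those of libraries 1 and 2. IgG made up 5 of 43 (11.6%), 5 of 45 (11.1%) and 20 of 37 cells (54.1%, 36.9 to 70.5%). IgA made up 3, 1 and 4 cells (6.98%, 2.22% and 10.8%), with intervals that overlapped.

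**Figure D1:**
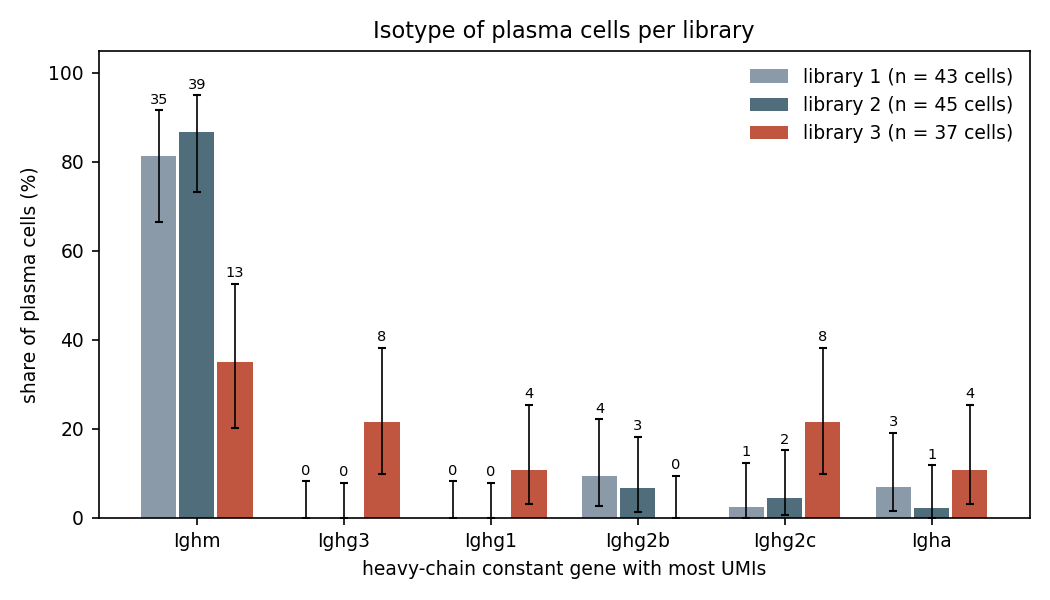
Share of plasma cells (percent) led by each heavy-chain constant gene in libraries 1 (n = 43), 2 (n = 45) and 3 (n = 37), with exact binomial 95% intervals and the number of cells above each bar. Ighm leads in 35 and 39 cells of libraries 1 and 2 and in 13 of library 3, and Ighg3 and Ighg1 lead only in library 3.

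The IgG subclasses differed between the libraries as well. Ighg2b, the gene of IgG2b, led in 4 cells of library 1, 3 of library 2 and 0 of library 3. Ighg2c, the C57BL/6 counterpart of IgG2a, led in 1, 2 and 8 cells. Ighg3 led in 8 cells and Ighg1 in 4 cells, all of library 3, against 0 of 43 and 0 of 45 cells in libraries 1 and 2, which allows shares of up to 8.22% and 7.87%.

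Most cells expressed 1 isotype almost alone. The leading gene held a median of 99.96% of a cell's heavy-chain constant UMIs, at least 99% in 106 of 125 cells and under 80% in 3. Those 3 cells had 3, 47 and 96 heavy-chain UMIs, against a median of 2067 over all members. The background of free immunoglobulin RNA was read in T cells of the same libraries, where Ighm held 90.0%, 86.2% and 75% of the heavy-chain UMIs. In library 3 that background also held Ighg2c (4.65%), Igha (3.51%), Ighg1 (2.56%) and Ighg3 (2.16%). Subtracting its mean per T cell, 1.59 and 2.16 Ighm UMIs in libraries 1 and 2, changed the isotype of 0 of 125 cells. So small an amount could change only a cell with few heavy-chain UMIs.

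The J chain transcript stood in a different ratio to the heavy chain in cells of different isotype, and the ranges overlapped. In IgM cells the median was 16.0, 12.7 and 24.8 Jchain UMIs per 100 heavy-chain constant UMIs in libraries 1, 2 and 3. In IgG cells it was 5.35, 3.54 and 9.23, below the IgM median of the same library each time. In IgA cells it was 37.6 (3 cells), 29.9 (1 cell) and 12.6 (4 cells), above the IgM median in libraries 1 and 2 and below it in library 3. Among the IgG subclasses the medians were 16.5 for Ighg1, 8.32 for Ighg3, 7.11 for Ighg2b and 3.83 for Ighg2c. Ighg1 and Ighg3 led only in library 3 and Ighg2b only in libraries 1 and 2, so subclass and library cannot be told apart here. For Ighg2c, found in all 3, the ratio of summed UMIs was 3.89, 3.01 and 14.6 per 100 in libraries 1, 2 and 3. The 87 IgM cells ranged from 0.858 to 117, and the 30 IgG cells from 2.33 to 767, the highest being the Ighg2c cell with 3 heavy-chain UMIs. Since at least 20 Jchain UMIs were required, a cell with less J chain could not enter, and these ratios are a description.

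**Figure D2:**
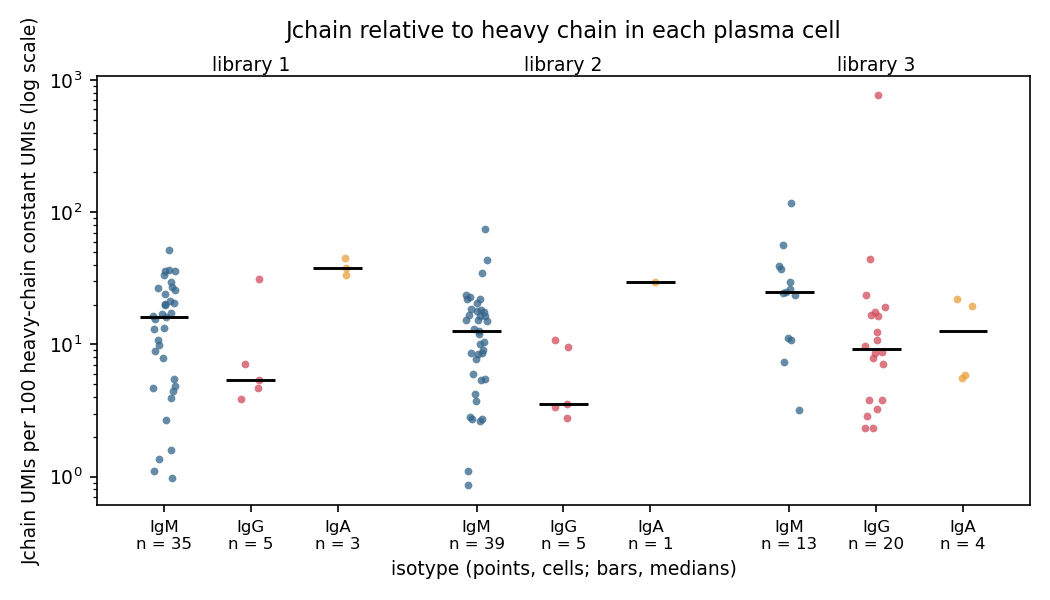
Jchain UMIs per 100 heavy-chain constant UMIs (log scale) in each plasma cell, by isotype and library, with bars at the medians. IgG medians of 5.35, 3.54 and 9.23 lie below the IgM medians of 16.0, 12.7 and 24.8 in libraries 1, 2 and 3, and the points overlap.

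Immunoglobulin genes, Jchain counted with them, took a large share of the RNA. Their summed share was 56.1%, 54.5% and 39.3% of the plasma cells' RNA UMIs in libraries 1, 2 and 3. Per cell the median was 61.4% (from 1.97 to 85.0%), 58.2% (from 15.8 to 77.6%) and 46.2% (from 0.775 to 74.5%), so that the ranges overlapped. By isotype the median was 59.0% in IgM, 47.7% in IgG and 52.2% in IgA cells. The lower value of library 3 was present within IgM cells, at 61.8%, 58.5% and 44.7%. Median RNA UMIs per plasma cell were 16603, 16210 and 16600, and 6803, 7580 and 8761 outside the immunoglobulin genes. Their part in these shares was not tested. Plasma cells made up 0.620% of the kept cells but held 72.2%, 54.6% and 44% of the immunoglobulin UMIs of all kept cells in libraries 1, 2 and 3.

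**Figure D3:**
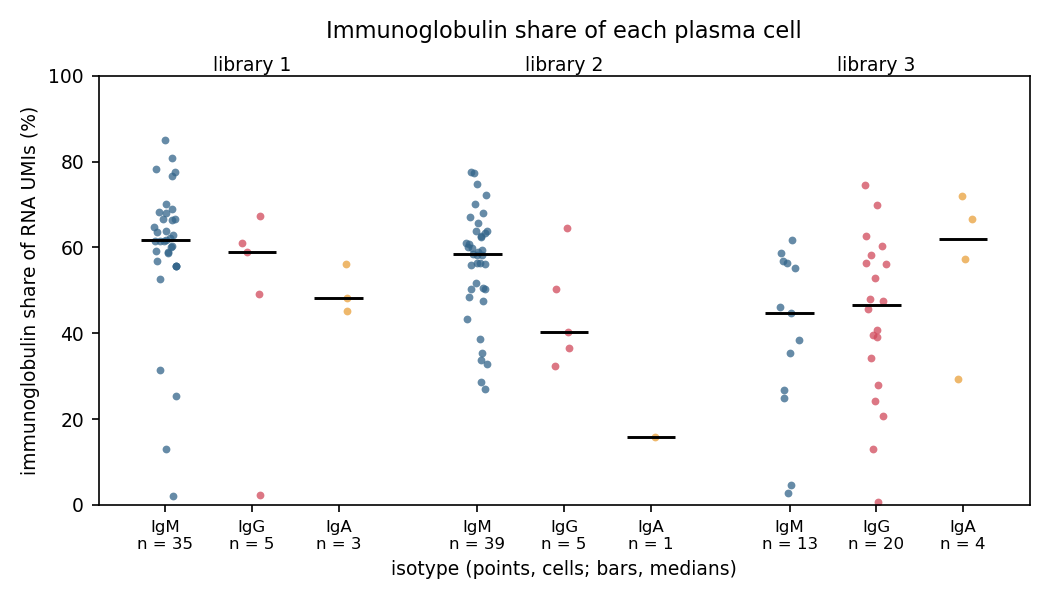
Immunoglobulin share of RNA UMIs (percent) in each plasma cell by isotype and library, with bars at the medians. IgM medians are 61.8, 58.5 and 44.7% in libraries 1, 2 and 3, and a few cells of each library but the second lie under 10%.

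The light chain was kappa in most cells. Igkc led in 118 of 125 cells and a lambda gene in 7 (5.60%, 2.28 to 11.2%), of which 5 were led by Iglc1 and 2 by Iglc3. By library 2, 2 and 3 cells were lambda. Of the 2 in library 1, 1 was the cell with 2263 erythroid UMIs, which had 1.97% immunoglobulin UMIs and 28 light-chain UMIs, 82.1% of them Iglc1. All 7 were IgM cells (8.05% of 87), against 0 of 30 IgG cells, which allows up to 11.6%, and 0 of 8 IgA cells.

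V segments are far from the sequenced end of the transcript and gave few UMIs, a median of 31 per cell for the heavy and 54 for the light chain. A V segment was assigned where it held at least 10 UMIs and 80% of a cell's heavy V UMIs, or 60% of its light V UMIs. This gave a heavy segment in 98 cells (44 different segments), a light segment in 108 (44 different) and both in 88. Ighv1-53 was the commonest heavy segment, in 7, 8 and 0 cells of libraries 1, 2 and 3. Igkv5-39 was the commonest light segment, in 9, 5 and 0 cells, and Igkv4-55 led in 0, 7 and 0 cells. Other segments also came mostly from 1 library, such as Ighv1-64 with 0, 1 and 4 cells, Ighv2-3 with 0, 0 and 3, Igkv3-2 with 4, 0 and 0, and Ighv6-3 with 0, 3 and 0, whereas Igkv19-93 (4, 2 and 1 cells) and Iglv1 (1, 2 and 4) were seen in all libraries. Of the Iglv1 cells 1, an Ighg3 cell of library 3, was led by Igkc, with 25 Iglv1 UMIs or 69.4% of its light V UMIs.

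The ends of 3 of the segments that were not found in each library are shown because they were common and have near copies. Each run is the last 120 bases of the germline V segment in mm10 with the GENCODE annotation, on the minus strand, and capitals mark bases that differ from the most similar other V segment, which were 2, 13 and 5 of the bases in that order.
Ighv1-53, chr12:115158403-115158522: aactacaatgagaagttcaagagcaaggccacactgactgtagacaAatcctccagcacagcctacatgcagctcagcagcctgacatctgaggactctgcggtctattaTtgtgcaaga
Igkv5-39, chr6:69900424-69900543: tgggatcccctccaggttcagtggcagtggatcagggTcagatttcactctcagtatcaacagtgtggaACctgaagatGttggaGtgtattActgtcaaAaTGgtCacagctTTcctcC
Igkv4-55, chr6:69607275-69607394: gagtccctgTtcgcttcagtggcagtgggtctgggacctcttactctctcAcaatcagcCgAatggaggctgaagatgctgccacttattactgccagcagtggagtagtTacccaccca
Over their whole coding length Ighv1-53 was 95.4% identical to Ighv1-55, Igkv5-39 was 90.5% identical to Igkv5-45 and Igkv4-55 was 95.7% identical to Igkv4-71. Reads could be split between such copies, so the segment names are uncertain.

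The 88 cells with both segments carried 75 different pairs. A pair was repeated within a library 10 times, in 22 cells (25%), of which 10 of 27 cells were in library 1, 10 of 36 in library 2 and 2 of 25 in library 3. The largest set was Ighv1-53 with Igkv4-55, in 4 IgM cells of library 2. A pair joined different IgG subclasses in library 1, where Ighv1-53 with Igkv2-137 was found in 1 Ighg2b and 1 Ighg2c cell. The other repeated IgG pairs were Ighv5-12 with Igkv10-96 in 2 Ighg2b cells of library 2 and Ighv2-3 with Igkv17-127 in 2 Ighg1 cells of library 3. Between libraries 1 pair was shared, Ighv2-9 with Igkv6-15 in IgM cells of libraries 1 and 3. Put per pair of cells, 1.17% of 1281 within a library and 0.0393% of 2547 between libraries shared both segments. Junction sequences were not analysed here, so cells of 1 clone and cells that use the same segments by separate rearrangement cannot be told apart. Cells of a library also share the free RNA of that library.

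Genes outside the immunoglobulin genes were compared between IgG and IgM cells. A gene was called where the pooled CPM differed at least 2-fold, in the same direction in each library with 5 or more cells of both isotypes (all 3 libraries), with at least 50 CPM on the higher side, UMIs in at least 10% of its cells and no cell with more than 1 in 3 of them. This is a rule of size, not a test. Of 3545 genes, 43 were higher (1.21%) and 151 lower (4.26%) in IgG cells, 194 in all (5.47%), and the median log2 ratio of all genes was -0.06. The exact intervals of the summed counts did not overlap for 23 of the higher and 88 of the lower genes. As CPM of all RNA UMIs, which counts the immunoglobulin genes, 50 genes were higher and 20 lower, and the median moved to 0.29. Isotype and library overlap, since 20 of 30 IgG cells but 13 of 87 IgM cells came from library 3, and values within each library are given for the genes described first. The other ratios are pooled, and in their size isotype and library cannot be told apart. Ryk, as a case, was lower in library 3 as well, at 90.2, 87.6 and 22.7 CPM in the IgM cells of libraries 1, 2 and 3 and 52.6, 0 and 4.6 CPM in IgG cells.

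Slc3a2 was among the lower genes in IgG cells. It encodes the heavy subunit of a surface amino acid transporter and was at 1903, 2174 and 537 CPM in the IgM cells of libraries 1, 2 and 3 and at 614, 579 and 134 CPM in IgG cells. Summed, that was 1725 against 286 CPM, 6.02-fold lower in IgG (4.86 to 7.54), and within each library the intervals of the isotypes did not overlap. Txndc5, a protein disulfide isomerase, was at 3084, 3232 and 1807 CPM in IgM and 771, 950 and 1061 CPM in IgG cells, 2.89-fold lower. Bcl2, which blocks cell death, was at 126, 183 and 174 CPM against 70.1, 20.7 and 41.7 CPM, 3.68-fold lower (2.09 to 6.98). Ggh, a gamma-glutamyl hydrolase, was at 162, 194 and 90.7 CPM against 17.5, 0 and 13.9 CPM, with 4 UMIs in all IgG cells, 12.9-fold lower (4.88 to 48.2). Asns, asparagine synthetase, had 5 UMIs in IgG cells and 55 in IgM cells, 5.73-fold lower. Cox6a2, a subunit of cytochrome c oxidase, had 106 UMIs in 15 of the 87 IgM cells and 0 in IgG cells. With a floor of 3 counts over the IgG cells that was 18.4-fold lower. Ddit3, a stress-induced transcription factor, had 3 UMIs in IgG and 37 in IgM cells, a ratio of 6.42 (2.03 to 32.6). Nenf also had 3 against 37 UMIs, Sema6d 3 against 35 and Kcnmb4os2 3 against 47. Hdac9, a histone deacetylase, had 2 against 55 UMIs, a ratio of 14.3 (3.78 to 121), and the receptor Ryk 4 against 46 UMIs, 5.99-fold lower.

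Hist1h1d and Mki67 were among the genes higher in IgG cells. Hist1h1d, a linker histone, was at 228, 82.7 and 473 CPM in the IgG cells of libraries 1, 2 and 3 and 36.1, 38.1 and 166 CPM in IgM cells, 5.71-fold higher (3.96 to 8.39), but 10 of the 13 UMIs in the IgG cells of library 1 and 20 of the 22 in the IgM cells of library 3 came from 1 cell each. Mki67, which encodes the proliferation marker Ki-67, was at 1508, 248 and 1265 CPM against 149, 57.1 and 1006 CPM, 3.94-fold higher, but 84 of its 86 UMIs in the IgG cells of library 1 came from 1 cell. Rpa1 (4.27-fold) and Tipin (3.26-fold), both of DNA replication, the DNA repair enzyme Neil1 (3.46-fold) and the chromatin remodeller Smarca4 (2.95-fold) were also called, as were Ppme1 (2.97-fold) and Mrpl40 (2.88-fold). In the IgG cells of library 1, 18 of the 20 Smarca4 UMIs and all 12 of Neil1 came from 1 cell, as did all 11 Neil1 UMIs in the IgM cells of library 3. Ly6c2, one of the genes of the surface protein Ly-6C, was at 649, 1033 and 1506 CPM in IgG and 523, 457 and 144 CPM in IgM cells, 3.10-fold higher (2.65 to 3.64), and the intervals of library 1 overlapped. In the IgG cells of libraries 1, 2 and 3, 25 of 37, 43 of 50 and 115 of 325 Ly6c2 UMIs came from 1 cell each. Without library 3 the log2 ratio of Ly6c2 was 0.76, under 2-fold, and 13 of the 43 higher and 86 of the 151 lower genes were called again. Ly86, the partner of the receptor RP105, was 3.05-fold higher, and Cxcr4, the chemokine receptor for bone marrow homing, 2.04-fold higher (1.21 to 3.45). Cxcr4 was at 140, 145 and 83.4 CPM against 67.6, 34.3 and 52.9 CPM, with 7 of 8 UMIs in the IgG cells of library 1 and 5 of 7 in those of library 2 from 1 cell each.

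**Figure D4:**
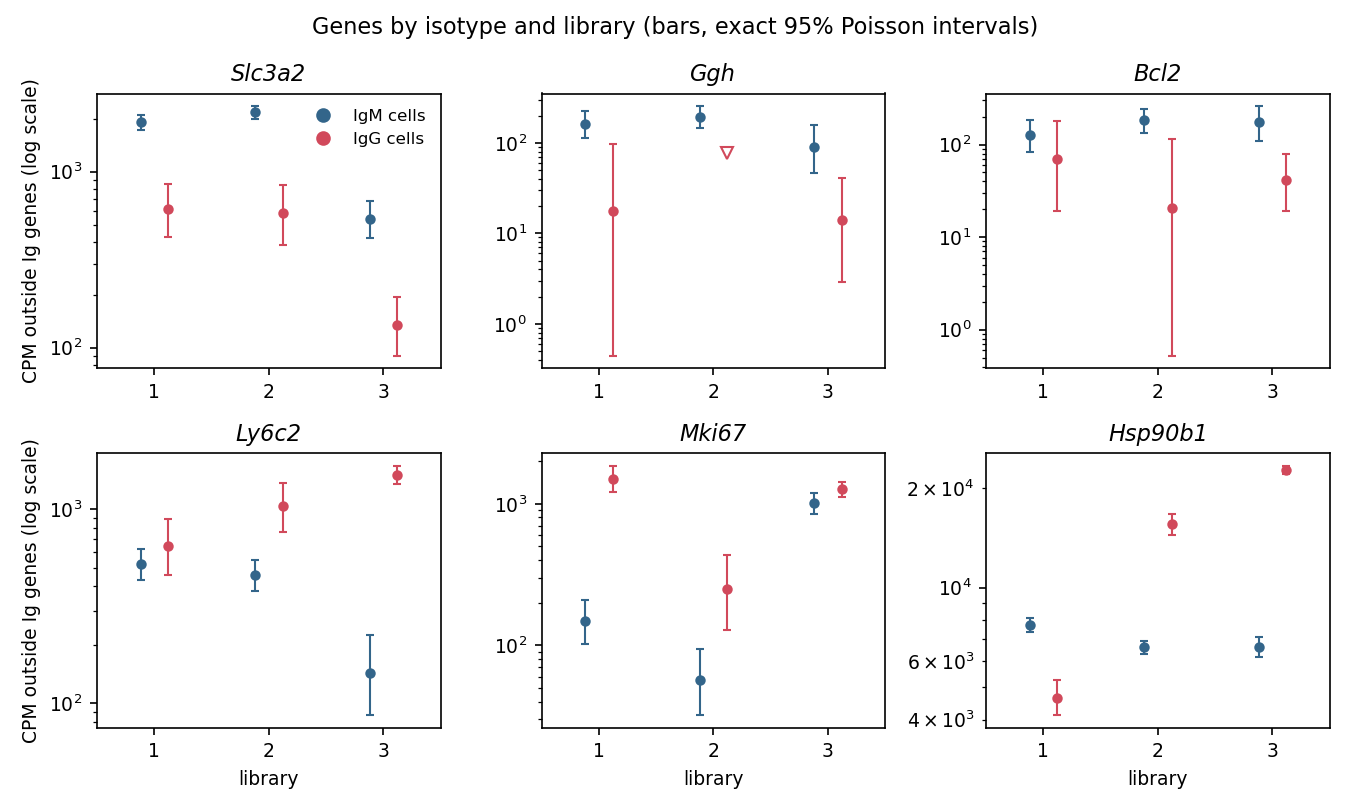
Level of 6 genes (CPM outside the immunoglobulin genes, log scale) in IgM and IgG plasma cells of each library, with exact 95% Poisson intervals and an open triangle at the upper limit where no UMI was counted. Slc3a2 is lower in IgG cells in every library, whereas Hsp90b1 is lower in library 1 and higher in libraries 2 and 3.

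Gene lists were read by role, beside the 1.21% of all genes called higher and 4.26% called lower in IgG cells. Of 25 genes of the secretory pathway, 0 were called higher and 0 lower in IgG cells, with a median log2 ratio of 0.23 beside -0.06 over all genes. Hsp90b1, the reticulum chaperone of the highest level, was at 7727, 6605 and 6631 CPM in IgM cells and 4663, 15559 and 22731 CPM in IgG cells, so its direction turned between libraries and it was not called. Hspa5, the chaperone BiP, moved the same way, at 3354, 3110 and 2344 CPM against 1613, 6178 and 6735 CPM. Of 8 plasma cell regulators, Xbp1 among them, 0 were called (median -0.26), with Xbp1 at 3551 and 3490 CPM in IgM and IgG cells. Of 6 genes of the unfolded protein response, 1 was called lower (Ddit3, median -0.48), and of 11 survival genes 1 was higher (Ly6c2) and 1 lower (Bcl2, median -0.52). Of 6 genes of the list of amino acid and energy metabolism, 3 were lower, Txndc5, Slc3a2 and Asns (median -0.83). Txndc5, the protein disulfide isomerase named above, had been placed in this list and not among the 25 secretory genes, so their 0 calls do not cover it. Of 9 homing genes 1 was higher, Cxcr4 (median 0.01), and of 11 B cell genes, 6 of MHC class II and 4 of class switching, 0 were called (medians 0.39, 0.46 and 0.23).

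Of 12 cell cycle genes 1 was called higher, Mki67, and the median log2 ratio was 1.57. These transcripts came from few cells. By at least 3 UMIs each of Mki67 and Top2a, the DNA topoisomerase of dividing cells, 7 of 125 cells were set apart: 1 of library 1, 1 of library 2 and 5 of library 3, of which 2 were IgM, 4 IgG and 1 IgA. Their median immunoglobulin share was 15.8%, against 58.3% in the other 118 cells, and their median depth outside the immunoglobulin genes 22930 against 7128 UMIs. Sdc1 had UMIs in 4 of the 7 and 103 of the 118. The 3 without Sdc1 had 2.38%, 0.775% and 2.73% immunoglobulin UMIs and 0 UMIs of Prdm1 and Irf4. The summed cell cycle list was at 1892, 850 and 4104 CPM in libraries 1, 2 and 3, and at 380, 357 and 2509 CPM without the 8 members under 20% immunoglobulin UMIs. By isotype it was at 1291 CPM in IgM, 4356 in IgG and 3000 in IgA cells, and at 595, 2302 and 521 CPM without those members. After thinning, Mki67 was seen in 13.1% of 84 IgM cells, 36.7% of 30 IgG cells and 2.75% of 400 T cells.

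IgA plasma cells were compared with IgM cells by the same rule, but no library had 5 cells of both, so that no direction within a library was required. Of 3806 genes, 97 were higher (2.55%) and 290 lower (7.62%) in the 8 IgA cells, 387 in all (10.2%), with a median log2 ratio of -0.02, and the intervals did not overlap for 25 and 104 of them. As CPM of all RNA UMIs 152 were higher and 107 lower, and the median moved to 0.51. The 8 IgA cells were 3, 1 and 4 cells of libraries 1, 2 and 3. Of their 64007 UMIs outside the immunoglobulin genes, 21423 were in 1 cell of library 3 and 16028 in the library 2 cell. The pooled IgA levels thus rest largely on these cells, and the library 2 cell is the IgA cell set apart above by Mki67 and Top2a. Of the genes called, 75 of the 97 higher and 238 of the 290 lower had the same direction in each library, and in ratios given without library values isotype and library cannot be told apart.

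Pycard, the adaptor ASC of inflammasomes, was at 7028, 5802 and 3156 CPM in the IgA cells of libraries 1, 2 and 3 and at 230, 240 and 182 CPM in IgM cells. Summed, it was 22.4-fold higher (18.3 to 27.6), with UMIs in 7 of 8 IgA cells, although in library 3 1 cell held 85 of its 89 UMIs. Ccr10, a chemokine receptor of IgA plasma cells that home to mucosa, was at 202, 187 and 638 CPM in IgA cells and 54.1, 0 and 0 CPM in IgM cells, 20.1-fold higher (9.72 to 43.9), in 7 of 8 IgA and 2 of 87 IgM cells, 1 of which held 10 of the 12 IgM UMIs. Itgb7, a subunit of the gut-homing integrin alpha4 beta7, was at 506, 187 and 674 CPM against 27.1, 72.3 and 37.8 CPM, 10.3-fold higher, in 8 of 8 and 19 of 87 cells. Its partner Itga4 was at 1781 CPM in IgA and 420 CPM in IgM cells, over 8 and 64 cells, and was not called. The transcription factor Klf2 was 8.97-fold higher and Cd44, an adhesion receptor, 3.18-fold higher. In the IgA cells of library 3, 9 of the 10 Klf2 UMIs came from 1 cell. Tnfrsf17 was at 1172 against 133 CPM, 8.81-fold higher (6.36 to 12.2), in 8 of 8 and 42 of 87 cells. Ccr9, the chemokine receptor of the small intestine, was at 594 against 4.9 CPM, in 4 of 8 and 3 of 87 cells, and was not called. After thinning, Itgb7 was seen in 6 of 8 IgA cells and 5.95% of 84 IgM cells, but also in 16.5% of 400 T cells, which use this integrin as well. Ccr10 was then seen in 3 of 8 IgA cells, 1.19% of IgM cells and 0.500% of T cells.

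Further genes called higher in IgA cells were the transcription factor Runx2, with 6 UMIs against 1, the calcium channel Itpr1 (7.01-fold), the tRNA synthetase Wars (6.88-fold) and the demethylase Kdm6a (4.38-fold). All 4 Wars UMIs in the IgA cells of library 3 came from 1 cell. Among the lower genes, Prg2, a granule protein known from eosinophils, had 523 UMIs in 60 of the 87 IgM cells and 0 in IgA cells. With a floor of 3 counts over the IgA cells that was 18.1-fold lower. Ly6a, which encodes Sca-1, was 8.64-fold lower (5.22 to 15.5), Slc3a2 6.90-fold lower (4.23 to 12.1) and the protease inhibitor Slpi 7.24-fold lower, with UMIs of Slpi in 2 of 8 IgA cells and 64 of 87 IgM cells. Ms4a1 had 1 UMI in IgA cells and 187 in IgM cells, a ratio of 19.4 (3.44 to 771). Chst1 and Pon3 had 0 UMIs in IgA cells and 180 and 146 in IgM cells, 6.23-fold and 5.05-fold lower with the same floor. Phgdh (serine synthesis) had 2 against 203 UMIs, Isg20 2 against 183 and AW112010 3 against 155.

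By list, 4 of 13 homing genes were higher in IgA cells (Ccr10, Itgb7, Klf2 and Cd44) and 3 lower (Epcam, Itgb1 and Itgal), with a median log2 ratio of 1.67 beside -0.02 over all genes, where 2.55% were higher and 7.62% lower. Itgb1 and Itgal were lower in each library, but Epcam was at 152, 0 and 213 CPM in the IgA cells of libraries 1, 2 and 3 and 428, 461 and 75.6 CPM in IgM cells, so that it was higher in library 3. Of 11 survival genes 1 was higher (Tnfrsf17) and 2 lower (Tnfrsf13c and Il6st, median -0.41). Of 25 secretory genes 0 were higher and 1 lower (Creld2, median 0.04), of 8 plasma cell regulators 0 and 1 (Zbtb20, median 0.42), of 8 B cell genes 0 and 2 (Ms4a1 and Fcrla, median -0.49) and of 5 MHC class II genes 0 and 1 (Cd74, median 0.07). Of 6 genes of the metabolism list, in which Txndc11 had been placed beside Txndc5, Txndc11 was higher and Slc3a2 lower (median -0.17). Of 6 unfolded protein response genes Ern1 was lower (median -0.25). Ern1 rested on 3 UMIs in IgA cells, at 0, 62.4 and 70.9 CPM against 234, 137 and 52.9 CPM in IgM cells, and was higher in library 3. Tnfrsf13c was at 50.6, 187 and 35.5 CPM against 207, 156 and 90.7 CPM, and was higher in library 2. Of 11 cell cycle genes 0 were called (median 1.27), and of 4 class switching genes 0 (median -0.17).

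Between libraries a gene was called where its CPM in plasma cells differed at least 2-fold from both other libraries. Of 3927 genes, library 1 had 33 higher (0.84%) and 26 lower (0.662%), library 2 had 36 (0.917%) and 12 (0.306%), and library 3 had 46 (1.17%) and 121 (3.08%). Intervals apart from both other libraries were seen for 7 and 4, 4 and 1, and 16 and 51 of them. As CPM of all RNA UMIs the counts were 1 and 8, 2 and 1, and 113 and 11, so that the split of library 3 turned to mostly higher genes. Within IgM cells alone, where 4173 genes were compared, library 1 had 47 higher (1.13%) and 44 lower (1.05%), library 2 had 51 (1.22%) and 17 (0.407%), and library 3 had 94 (2.25%) and 234 (5.61%). There, 69 of the 121 lower genes of library 3 were called again, and 5 of its 46 higher genes. These calls describe 3 libraries, not conditions, and library 3 differed from the others in isotypes as well.

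Slc3a2 was also lower in library 3, at 1574, 1834 and 271 CPM in libraries 1, 2 and 3 (5.80-fold), and was called again within IgM cells. Cpq, a plasma glutamate carboxypeptidase, was at 60.3, 73.4 and 0 CPM, 7.56-fold lower with a floor of 3 counts in library 3. Fgl2 (154, 113 and 16.0 CPM), the lipase Mgll (63.6, 55.0 and 8.0 CPM), Ryk (87.1, 70.3 and 10.6 CPM) and the lysosomal protease Ctsl (73.7, 91.7 and 13.3 CPM) followed, all but Cpq also called within IgM cells. Higher in library 3 were Pclaf, a PCNA-binding replication factor, at 73.7, 3.1 and 449 CPM, Rrm2, a ribonucleotide reductase subunit, at 23.4, 9.2 and 106 CPM, and Smc5, a DNA repair factor, at 10.0, 12.2 and 63.8 CPM. Ints7, Kdm2b and the T cell kinase Lck, at 13.4, 15.3 and 55.8 CPM, completed the leading set. The T cell marker sum of that library was also higher, but Lck is counted in it. Of the lists, 4 of 13 cell cycle genes were called higher in library 3 (Mki67, Hmgb2, Rrm2 and Tyms), beside Hsp90b1, at 7323, 7787 and 16561 CPM, and Ly6c2, and Ddit3 and Epcam were lower beside Slc3a2. Within IgM cells Hsp90b1 was at 7727, 6605 and 6631 CPM and Ly6c2 at 523, 457 and 144 CPM. There neither was higher in library 3, and Ly6c2 was lowest in it.

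Libraries 1 and 2 had fewer such genes, most at low counts. Library 1 led in Ifitm3, an interferon-induced membrane protein, at 181, 58.1 and 66.5 CPM, in Bmyc and Lipc, and in Gpm6a, Dtnbp1 and Dram2, each at 50 to 100 CPM. It was lowest in Rev3l, a DNA polymerase subunit, at 10.0, 55.0 and 90.4 CPM, and in Wdr89, Naa15, Mrpl32, Esyt1 and Mark2. Library 2 led in Ylpm1, Orai1 (a calcium channel, at 20.1, 58.1 and 8.0 CPM), Kbtbd11, Wfs1, Sdccag3 and Themis2. It was lowest in Mef2b, a transcription factor of germinal centre B cells, at 134, 27.5 and 85.1 CPM, and in Slc16a6, Ncapg2, Nup50, Mcm6 and Sfxn1.

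Surface antibodies were not used by the rule and were read beside B cells of the same library, whose median total of antibody counts per cell was 2205, beside 2208 for plasma cells. The panel of 34 antibodies has none against CD138. An antibody's share of all antibody counts was higher on plasma than on B cells in each library for 8 of 34, lower for 4 and mixed for 22. CD44, the adhesion receptor, had medians of 272, 291 and 310 counts per plasma cell in libraries 1, 2 and 3 against 66, 63 and 59 per B cell, and its share was 3.59-fold higher. CD106 (VCAM-1) had medians of 28, 31 and 22 against 13, 15 and 17, and its share was 1.93-fold higher. CD274 (PD-L1), with medians over all cells of 30 against 19, CD172 (26 against 18), F4_80 (21 against 14), CD11c (14 against 10) and Ly-6C (189 against 172) were also higher in share in each library. CD24 was too, by 1.08-fold over all libraries, although its median in library 2 was 346 on plasma and 352 on B cells.

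Other antibodies were lower on plasma cells. CD45R_B220, an isoform of CD45 on B cells, had medians of 46, 56 and 89 counts on plasma cells against 227, 244 and 244 on B cells. CD38 had medians of 73, 70 and 47 against 102, 100 and 95, and CD25 was lower in share at a median of 8 against 9. I-A_I-E, the MHC class II protein, was mixed, at 68, 112 and 461 counts on plasma cells and 365.5, 328 and 315 on B cells. Within isotypes it was at 59, 101 and 119 on IgM cells and at 121, 571 and 508.5 on IgG cells of libraries 1, 2 and 3. Total antibody counts per plasma cell were also higher in library 3 (medians of 1950, 2201 and 3029), and as a share I-A_I-E on plasma over B cells was 0.443, 0.778 and 1.14 by library and on IgG over IgM cells 1.49, 2.97 and 1.18.

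**Figure D5:**
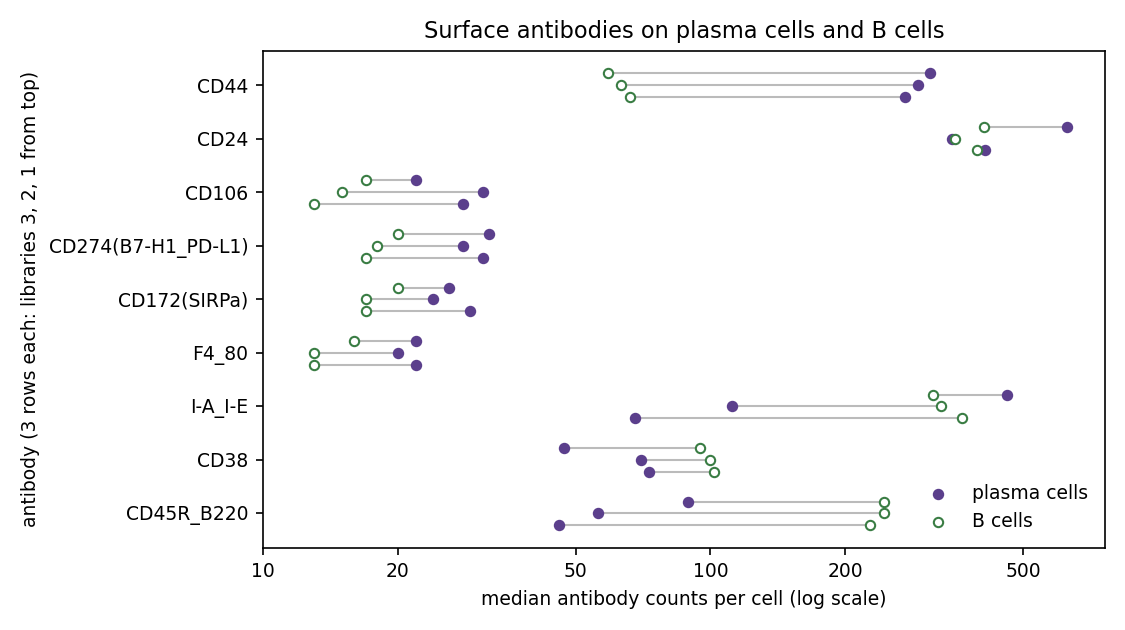
Median antibody counts per cell (log scale) on plasma cells (filled) and B cells (open) for 9 antibodies, with 1 row per library. CD44 is higher on plasma cells in every library (272 to 310 against 59 to 66 counts), CD45R_B220 is lower, and I-A_I-E changes sides in library 3.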

How the data were processed

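CITE-seq was run on splenocytes pooled from 5 mice per group, with 1 RNA and 1 antibody library each. The deposited values are whole-number counts of UMIs per feature and barcode (31053 genes and 34 antibodies over 29005 barcodes), made by the authors with Cell Ranger (5.0.1 in the file header) on mm10 and then aggregated. Whether aggregation subsampled the libraries was not stated. Seurat is named in the submitters' processing notes.

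Cells with 300 to 5000 genes and at most 10% mitochondrial UMIs were kept. The members, gene lists and markers were chosen with earlier results of these data known. CPM left out 393 immunoglobulin genes, Jchain among them. T cells (3851 kept cells with a UMI of Cd3e, Cd3d or Trac, none of Cd79a or Ms4a1 and outside the Jchain rule) gave the free RNA background. A fold against a group at 0 used a floor of 3 counts over the group and is no lower limit. Other ratios carry exact conditional Poisson intervals. Depth was 24569928 to 40949298 RNA UMIs per library, and the few cells per isotype limit the precision. No test was run. Genes were named from the markers, the constant genes, each list's 4 most counted and called members, the 10 largest called ratios per direction and isotype, the 6 per direction and library, antibodies with a median of at least 10 counts and V segments of at least 3 cells, and not each of them is printed. Top2a and CD25 fall outside that rule and were named after their values were seen. An antibody and a gene are not reported here. Scripts were tested on simulated data and used Python 3.11.15, numpy 2.4.6, scipy 1.17.1 and pandas 2.3.3. Alternatives changed the limits, the rule, the scaling, thinning to 1000 UMIs, the libraries and the cells with other lineage UMIs.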

Additional observations from a re-analysis of the deposited data

How the results depend on the processing

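The isotype make-up of library 3 kept its order in each alternative run for it, with IgM at 31.4 to 40.0% and IgG at 47.4 to 57.1%, and library 2 had IgM at 84.6 to 88.6%. Removing members with 3 or more UMIs of other lineages left 57 cells, 4 of them in library 1, since 39 of the 43 members there held such UMIs. Plasmacytoid dendritic cell markers were not counted for this removal, and 97 of 125 members had at least 3 UMIs of those. Plasma cells were then 0.0953% of library 1, all IgM (100%, with IgG and IgA at 0), and 0.225% of library 3, and genes called higher and lower were 117 and 485 for IgG, 40 higher for IgA, 7 and 2 for library 2 and 5 and 17 for library 3. Few of the library calls were made again, 1 of 33 and 0 of 26 in library 1, 0 of 36 and 0 of 12 in library 2, and 2 of 46 and 4 of 121 in library 3. Without a mitochondrial limit the share in library 2 was 0.432%. IgA in library 2 (1 cell) went to 0 where Jchain was not used and where members under 20% immunoglobulin UMIs were removed.

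The counts of called genes depended on the processing more than the isotypes did. As CPM of all RNA UMIs, 20 genes were lower in IgG cells, 152 higher and 107 lower in IgA cells, and 1 and 8, 2 and 1, and 113 and 11 higher and lower in libraries 1, 2 and 3. As a mean over cells, 95 genes were higher in IgG, 264 higher and 500 lower in IgA, 129 and 69 in library 1, 98 and 31 in library 2 and 107 higher in library 3, and Mrpl32 in library 1 turned to a log2 ratio of 0.086. After thinning to 1000 UMIs, 91 were higher and 64 lower in IgG and 25 lower in IgA. Few main calls were made again, 6 of 43 higher and 12 of 151 lower in IgG, and 11 of 97 and 10 of 290 in IgA. The ratio kept its sign for 42 of the 43 and 49 of the 151 genes in IgG, and for 97 of the 97 and 25 of the 290 in IgA. The median log2 ratio of all genes was then 0.49 in IgG and 2.17 in IgA. The floor of 3 counts is a higher level over 8 IgA or 30 IgG cells of 1000 UMIs than over 84 IgM cells. It moves ratios of genes near 0 toward higher in IgA and IgG cells. Signs and medians after thinning thus cannot show whether the lower genes lost their direction. Leaving out a library, which also leaves fewer libraries that must share a direction, gave 80 to 127 genes higher and 212 to 277 lower in IgG, and 37 to 127 higher and 157 to 232 lower in IgA. Without library 3, 13 of the 43 genes higher and 86 of the 151 lower in IgG were called again, Slc3a2 had a log2 ratio of -1.78 in place of -2.59, and Ly6c2 fell under 2-fold (0.76). Within IgM cells, 44 genes were lower in library 1 and 94 and 234 higher and lower in library 3.

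Chosen after seeing the data were 2 removals and a looser V rule. Without members of 3 or more T or NK cell UMIs, 74 genes were higher in library 3. Without members under 20% immunoglobulin UMIs, 72 and 227 were called in IgG and 59 higher in library 1, and the cell cycle list was at 380, 357 and 2509 CPM by library and 595, 2302 and 521 CPM in IgM, IgG and IgA cells. With V segments of at least 3 UMIs, 30 of 119 cells (25.2%) shared a pair within a library. The cause of these moves was not tested. Of 233 values of the main shares and counts under an alternative, 177 stayed within their limits and 56 moved. Of 658 further values, each a named gene with a ratio under an alternative, 568 did not move past their error, 89 did and 1, Mrpl32, turned. That tally does not hold the other called genes, many of which did not keep their sign after thinning, where the floor moves the ratios, as given above. No paired analysis was possible because each group is 1 library and no comparison between groups was made. Isotypes of 8 and 30 cells limit what can be seen, and ratios at or under the floor were not formed for 62 gene and setting pairs.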

Other observations

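Outside the limits on genes and mitochondrial UMIs, 5 further barcodes met the Jchain and Xbp1 rule. An Igha barcode of library 1 had 21.5% mitochondrial UMIs and an Igha barcode of library 3 had 10.3%, with 26.5% and 65.4% immunoglobulin UMIs. The other 3 were of library 3 and had 5038, 6191 and 6312 genes. The first was led by Ighm with 7.01% immunoglobulin UMIs, and the others by Ighg2b with 0.653% and 0.699%.

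The plasmacytoid dendritic cell list summed to 865 CPM in plasma cells, above the 373 CPM of B cells. Tcf4, a transcription factor, was at 523 CPM and Bst2, a surface protein, at 294 CPM, in 107 and 92 of 125 cells, whereas Siglech, a defining gene of plasmacytoid dendritic cells, had 1 UMI in 1 cell. Ccr9 was at 46.9 CPM, in 9 cells.

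Epcam, an epithelial adhesion gene, was at 306 CPM in plasma cells, with UMIs in 69 of 125 cells, and at 8.2 CPM in B cells. It was at 362, 401 and 181 CPM in libraries 1, 2 and 3, and at 366, 224 and 141 CPM in IgM, IgG and IgA cells. Within library 3 the order was another, at 75.6, 241 and 213 CPM. Slpi was uneven between cells, with 2666 of the 2917 UMIs of IgG cells in library 3 and 688 UMIs in a single IgM cell of library 2.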
